A study of Rattus norvegicus with 26 samples.

Results

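The genes examined, taken by symbol, mostly encode the nuclear subunits of mitochondrial complexes II, III, IV and V, and cytochrome c, in the hippocampus of ageing rats fed different amounts of vitamin D3. Members were the genes with the symbols Sdha, Sdhb, Sdhc, Sdhd, Cyc1 or Cycs and those whose symbols start with Uqcr, Cox4, Cox5, Cox6, Cox7, Cox8 or Atp5, each read from its probe set of highest mean. The rule found 44 of the 14506 genes that the array annotation names by a probe set with a single symbol: 4 of complex II, 7 of complex III, cytochrome c (Cycs), 16 of complex IV and 16 of complex V. These counts go by symbol. Complex IV here includes the pseudogene Cox6c-ps1 and the supercomplex factor Cox7a2l, and complex V includes the inhibitor Atp5if1. Cyc1, Cox6b1, Cox7a1, Uqcr10 and Atp5mf were not among these symbols and were not analysed here. A gene was tested if its mean lay at or above 6.94 on the log2 scale, the median of all probe sets. Of the 44 members 37 passed (4, 7, 1, 10 and 15 in the same order), among 8485 genes tested in all.

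Hippocampal RNA came from male Fisher 344 rats aged 18 months, 1 array per rat. For 5 to 6 months they had eaten a purified diet with vitamin D3 at 100 IU/kg (low, 8 rats), 1000 IU/kg (control, 9 rats) or 10000 IU/kg (high, 9 rats); the labels name no other treatment and no genetic modification. Rats were kept in pairs, and 12 of the 14 cages had both rats measured. Array medians ran from 6.92 to 6.96, and on average an array correlated with the rest at 0.997 to 0.998. Of the listed markers found among the array symbols, 12 of 12 neuronal, 6 of 6 CA1 field (7 listed) and 4 of 5 dentate gyrus markers (7 listed) were tested. Of the red blood cell markers 0 of 3 were tested (5 listed), and of the choroid plexus markers 2 of 9 (10 listed). The tissue is bulk, so fewer cells of a type and less RNA per cell cannot be told apart in any value given here.

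As background, complex II (succinate dehydrogenase) is both an enzyme of the citric acid cycle and an entry point for electrons, which ubiquinone carries to complex III, the cytochrome bc1 complex. Cytochrome c, a small soluble protein, passes them to complex IV, cytochrome c oxidase, which reduces oxygen; complexes III and IV pump protons, and complex V, the ATP synthase, makes ATP as protons flow back through its membrane ring. Complexes III, IV and V also hold subunits encoded by mitochondrial DNA, whereas complex II does not. Neurons depend on this pathway for the ATP that restores ion gradients after firing. Of the 16 symbols listed for mitochondrially encoded genes, 0 were among the array symbols, so the values describe nuclear genes only.

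Promoters are shown for 4 members: Uqcrc1 and Cox4i1, which had among the smallest unadjusted p of the members between high and low, and Atp5mk and Uqcrq, which differed most from rat to rat. Each is 300 bases long, 250 before and 50 after the annotated start, on the strand of the gene, from RefSeq on GRCr8. Uqcrc1 is at chr8:118467973-118468272 (+), Cox4i1 at chr19:65630133-65630432 (+), Atp5mk at chr1:255921998-255922297 (-) and Uqcrq at chr10:38089929-38090228 (-). Capitals mark matches, on either strand, to the NRF1 motif CGCATGCG, the GABPA motif CCGGAAGT, the YY1 motif AAGATGGCG, the Sp1 motif GGGCGG or the TATA box TATAAA; none of these matches overlap.
Uqcrc1: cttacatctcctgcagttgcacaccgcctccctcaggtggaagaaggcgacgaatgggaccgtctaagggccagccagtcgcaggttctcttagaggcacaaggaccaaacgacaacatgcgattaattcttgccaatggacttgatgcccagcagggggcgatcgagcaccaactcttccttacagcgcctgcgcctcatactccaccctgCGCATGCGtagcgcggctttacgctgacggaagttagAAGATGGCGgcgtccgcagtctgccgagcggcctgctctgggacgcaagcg
Cox4i1: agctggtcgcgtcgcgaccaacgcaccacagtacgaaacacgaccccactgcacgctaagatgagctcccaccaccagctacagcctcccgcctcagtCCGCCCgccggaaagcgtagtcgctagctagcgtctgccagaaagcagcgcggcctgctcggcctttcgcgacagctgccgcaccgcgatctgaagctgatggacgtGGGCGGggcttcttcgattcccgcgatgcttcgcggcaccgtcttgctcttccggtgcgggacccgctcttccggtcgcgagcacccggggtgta
Atp5mk: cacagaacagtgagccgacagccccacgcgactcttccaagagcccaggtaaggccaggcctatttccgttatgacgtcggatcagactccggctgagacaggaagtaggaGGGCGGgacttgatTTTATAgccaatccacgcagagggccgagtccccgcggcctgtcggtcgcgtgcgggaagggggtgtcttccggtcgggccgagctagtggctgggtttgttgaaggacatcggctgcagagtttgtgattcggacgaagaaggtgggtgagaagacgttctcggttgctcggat
Uqcrq: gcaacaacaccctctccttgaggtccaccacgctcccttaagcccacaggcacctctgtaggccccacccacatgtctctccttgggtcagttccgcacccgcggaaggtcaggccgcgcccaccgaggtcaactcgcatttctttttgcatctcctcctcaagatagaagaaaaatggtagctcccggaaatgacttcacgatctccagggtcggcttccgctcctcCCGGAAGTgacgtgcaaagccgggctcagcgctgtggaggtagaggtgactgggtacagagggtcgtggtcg
The Uqcrc1 promoter held an NRF1 match that began at position -38 and a YY1 match at -1, counted from the start. Cox4i1 held 2 Sp1 matches, at -152 and -45. Atp5mk held an Sp1 match at -139 and the TATA box letters on the opposite strand at -125, and Uqcrq held a GABPA match at -22.

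A promoter was found for 37 of the 44 members; Atp5pd, Cox4i2, Cox6a1, Cox6c, Cox6c-ps1, Uqcr11 and Uqcrb had none in the table. NRF1 is a transcription factor known for nuclear genes of respiration, and its motif was in 7 of these 37 promoters (18.9%) against 1.81% of all 27457 promoters of the same length. The matches were in 5 of 15 complex V promoters (Atp5mc2, Atp5me, Atp5mg, Atp5pf and Atp5po), in Uqcrc1 and in Cycs, and in 0 of 12 complex IV and 0 of 4 complex II promoters. The motif of GABPA, an ETS factor, was in 5 promoters (13.5%, against 4.01%), those of Atp5f1a, Cox5b, Cox8a, Uqcrh and Uqcrq. YY1 letters were in 2 (5.41%, against 1.93%), Sp1 letters in 16 (43.2%, against 34.9%) and the TATA box in 3 (8.11%, against 14.3%). The median GC content was 57.0% in members and 52.3% in all promoters. These are letter matches in a short window and were not tested for difference.

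No member was called between the diets. A gene was called at a Benjamini-Hochberg adjusted p under 0.17 over all 8485 genes in limma, a threshold the series names. At that threshold 0% of all genes were called over the 3 diets, 0% between high and low, 0% between high and control and 0% between low and control. The smallest adjusted p of a member was 0.998 over the diets, 0.674 for high against low, 0.991 for high against control and 1.00 for low against control. At an unadjusted p under 0.05 stood 2 of 37 members over the diets (5.41%, against 4.62% of all genes), 4 for high against low (10.8%, against 7.22%), 2 for high against control (5.41%, against 4.63%) and 0 for low against control (against 2.27%). The 4 became 2 without low rat 2 or without high rat 26. The 2 for high against control became 1 without any of control rats 11, 12, 14 and 15 and high rats 21, 23 and 26.

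The intervals of the members were narrow. In each of the 3 comparisons the 95% interval of every one of the 37 tested members lay within a 1.2-fold difference either way. The widest interval was that of Atp5mk, from -0.20 to 0.22 on the log2 scale between high and low. Among all genes tested 97.9% of intervals between high and low met the same limit.

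**Figure D1:**
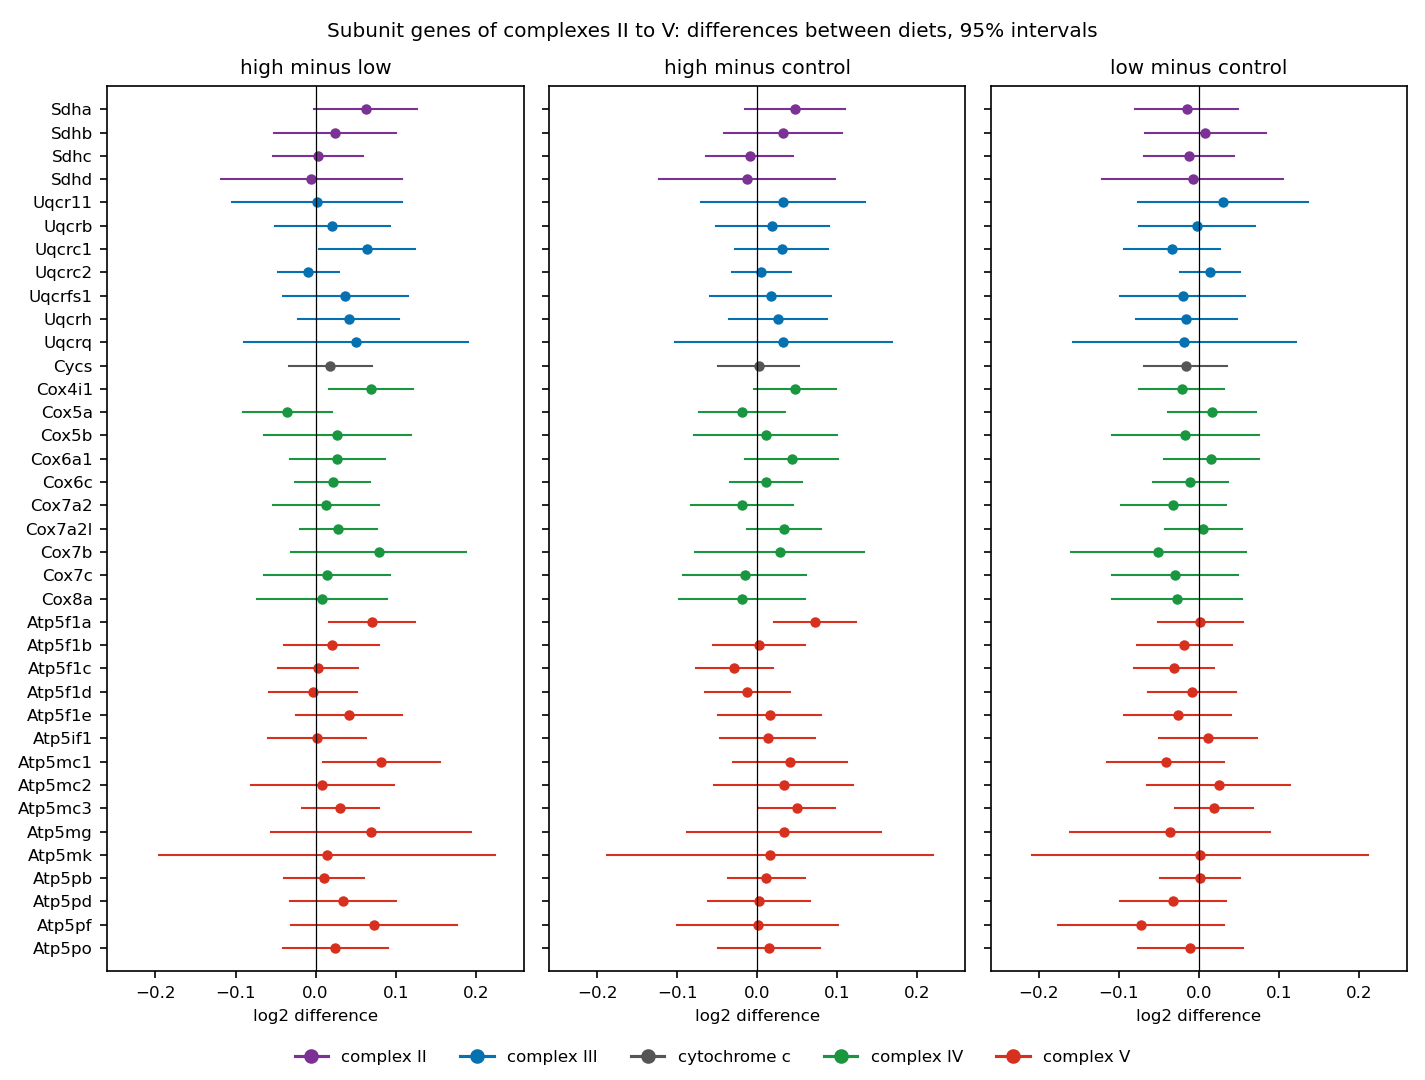
Difference between diets in log2 units for each of the 37 tested members, with 95% intervals from the limma fit; points are coloured by complex, and each panel is a pair of diets. Most points for high minus low lie right of 0 (33 of 37), most intervals cross 0, and the interval of Atp5mk is the widest.

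The means nevertheless lay mostly on one side. Between high and low, 33 of 37 members were higher in mean on the high diet (89.2% of members, against 55.2% of all genes above 0 by any amount), with a median difference of 0.024 on the log2 scale against 0.0053 over all genes. By complex this was 3 of 4 members of complex II (median 0.014), 6 of 7 of complex III (0.037), 9 of 10 of complex IV (0.024) and 14 of 15 of complex V (0.025). The sizes rested on single rats: complex II moved to 0.037 without low rat 7, 0.023 without low rat 8, 0.021 without high rat 18, 0.0077 without low rat 5 and 0.0075 without low rat 3. Complex III moved to 0.019 without high rat 22 and 0.024 without high rat 23, complex IV to 0.012 without low rat 2, and complex V to 0.011 without low rat 7, 0.014 without high rat 19 and 0.016 without high rat 18, so the order of the complexes by median is not firm. The 4 that were lower were Sdhd, Uqcrc2, Cox5a and Atp5f1d. Between high and control, 29 of 37 members had the higher mean on high (78.4%; all genes, 50.6%), with 2 of 4, 7 of 7, 6 of 10 and 13 of 15 in complexes II to V. Between low and control, 12 of 37 were higher on the low diet (32.4%, against 44.1%). The comparisons share their rats, so the counts are not separate observations, and members are not independent of each other.

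Averaged over its members, each complex had an SD within diets (pooled, 0.032 to 0.051) as large as or larger than the difference between any of the diet means. The mean of complex II was 10.79 ± 0.046 on low (SD, n = 8), 10.80 ± 0.051 on control (SD, n = 9) and 10.81 ± 0.035 on high (SD, n = 9). That of complex III was 11.19 ± 0.044, 11.19 ± 0.062 and 11.22 ± 0.044 in the same order. Complex IV gave 11.72 ± 0.038, 11.73 ± 0.032 and 11.74 ± 0.024, and complex V 11.02 ± 0.041, 11.03 ± 0.020 and 11.05 ± 0.038. For every complex the order of the diet means was low, control, high, and the diets overlapped: 1 high rat exceeded all low rats for complex II, 3 for complex III, 3 for complex IV and 2 for complex V. Averaged over all 37 members, 9 of 9 high rats lay above the mean of the low rats (11.26), while 2 of 9 lay above every low rat. The spacing of the complexes, with each difference between 2 complexes set to 0 in the control mean, moved by less than the SD between rats for all 6 pairs. The largest shift was that of complex IV minus complex III, -0.0086 ± 0.054 on low and -0.013 ± 0.052 on high (SD), and complex V minus complex IV was 0.00045 ± 0.026 and 0.0074 ± 0.027.

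**Figure D2:**
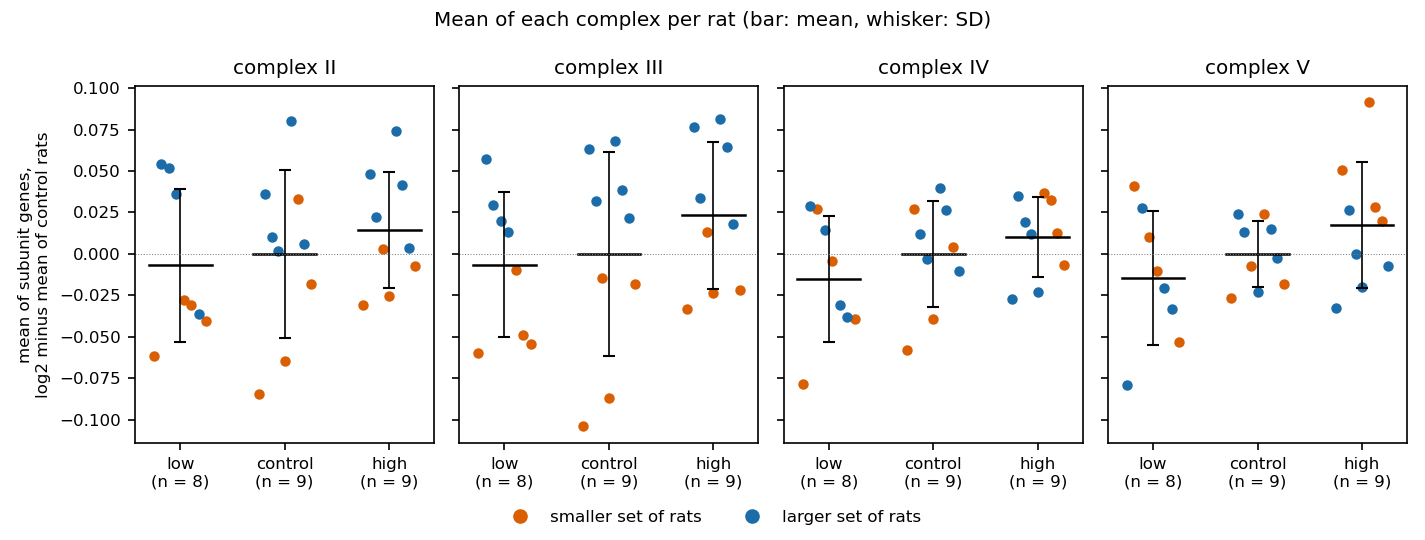
Mean of the tested members of each complex in each rat, in log2 units relative to the mean of the control rats, by diet (low 8, control 9, high 9); bars are means, whiskers SD, and colours mark the 2 sets of rats described in the text. The diets overlap in every panel, and for complexes II and III the rats of the larger set lie mostly above those of the smaller set.

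Within complex II, no member stood out between diets. Sdha, the flavoprotein that oxidises succinate, ranged from 11.18 to 11.38 on low (median 11.26), from 11.18 to 11.40 on control (11.31) and from 11.24 to 11.40 on high (11.36). The ranges overlap almost fully, and 8 of 9 high rats lay above the low mean. Its difference between high and low was 0.063 ± 0.031 (SE), with an adjusted p of 0.69 in limma. Sdhb, the iron-sulphur subunit, differed by 0.024 ± 0.037 (SE) between high and low. In low rat 7 it stood at 10.76, while the other low rats lay between 10.40 and 10.48. Sdhc and Sdhd, the membrane anchors, differed by 0.0036 and -0.0052.

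In complex III the means of 7 of 7 members were higher on high than on control, by 0.0051 to 0.032. Uqcrc1, a core protein, had the smallest unadjusted p of the complex between high and low. It ranged from 10.26 to 10.48 on low (median 10.38), from 10.27 to 10.52 on control (10.43) and from 10.40 to 10.51 on high (10.44). The high rats filled the upper part of the low range, and 3 of 9 exceeded every low rat. The difference was 0.064 ± 0.029 (SE; unadjusted p = 0.036, adjusted p = 0.68, limma). The other core protein, Uqcrc2, differed by -0.0089 ± 0.019 (SE), Uqcrfs1, the Rieske iron-sulphur protein, by 0.037 ± 0.038, the hinge protein Uqcrh by 0.041 ± 0.031 and the small subunit Uqcr11 by 0.0023 ± 0.052. Cycs, which links complexes III and IV, ranged from 12.64 to 12.77 on low, 12.70 to 12.82 on control and 12.65 to 12.83 on high, a difference between high and low of 0.019 ± 0.025 (SE). RefSeq names 10 copies of Cycs, so its signal is uncertain. In all, 24 of the 44 members have at least 1 such named copy, and whether their probes tell the copies apart was not tested.

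In complex IV, Cox4i1, the widely expressed form of the regulatory subunit IV, ranged from 11.49 to 11.67 on low (median 11.61), from 11.57 to 11.71 on control (11.63) and from 11.63 to 11.75 on high (11.65). All 9 high rats lay above the low mean and above the control mean, yet only 3 of them exceeded every low rat. The difference between high and low was 0.069 ± 0.026 (SE; unadjusted p = 0.012, adjusted p = 0.67, limma), and that between high and control 0.048 ± 0.025. Its lung and hypoxia isoform Cox4i2 was below the limit for testing, between 5.20 and 5.46 over all diets. Cox5a, which with Cox5b frames the catalytic core, was the member of complex IV lower on high than on low, by -0.035 ± 0.027 (SE). A second Cox5a probe set, correlated with the kept one at 0.81, differed by only -0.0026.

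Of the isoform families, Cox6a and Cox8 each had a tested form and at least 1 untested form, both Cox7a2 and Cox7a2l were tested, and the only Cox6b form analysed was untested. Cox6a1 differed by 0.027 ± 0.029 (SE) between high and low, while Cox6a2, the heart and muscle form, lay below the limit, as did Cox6b2 and Cox8c, known from testis, and Cox8b. Cox8a, the broadly expressed form, differed by 0.0084 ± 0.040. Cox7a2 differed by 0.013 ± 0.032 and Cox7a2l, which joins complexes III and IV in supercomplexes, by 0.028 ± 0.023. Cox7b ranged from 10.49 to 10.86 on low (median 10.74), 10.62 to 10.99 on control (10.77) and 10.64 to 10.94 on high (10.79), ranges that overlap widely. Its difference of 0.079 ± 0.053 (SE) was the largest of the complex and had an adjusted p of 0.78 in limma. The pseudogene Cox6c-ps1, which the rule also takes in, and the complex V gene Atp5me were the remaining untested members.

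In complex V, Atp5f1a, the alpha subunit of the catalytic head, had the smallest unadjusted p of any member in both comparisons with the high diet. It ranged from 11.37 to 11.50 on low (median 11.44), from 11.35 to 11.51 on control (11.46) and from 11.40 to 11.55 on high (11.53). Low and control rats covered nearly the same range, 7 of 9 high rats exceeded every low rat and 7 of 9 every control rat, and high rat 18 lay among the lowest. The difference was 0.070 ± 0.026 against low (SE; unadjusted p = 0.012, adjusted p = 0.67, limma) and 0.072 ± 0.025 against control (unadjusted p = 0.0080, adjusted p = 0.99). Atp5f1b, its catalytic partner, differed from low by 0.020 ± 0.029 and from control by 0.0024 ± 0.028, and Atp5f1c, the central stalk, by 0.0029 ± 0.024 and -0.029 ± 0.024.

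Atp5mc1, Atp5mc2 and Atp5mc3 encode the same mature ring subunit c with different import signals. Atp5mc1 ranged from 10.47 to 10.66 on low (median 10.59), from 10.54 to 10.77 on control (10.61) and from 10.55 to 10.82 on high (10.65), and 4 of 9 high rats exceeded every low rat. It differed between high and low by 0.082 ± 0.036 (SE; unadjusted p = 0.030, adjusted p = 0.68, limma). Atp5mc3 ranged from 12.13 to 12.25 on low, 12.10 to 12.27 on control and 12.20 to 12.28 on high, so that 9 of 9 high rats lay above both other means. It differed from control by 0.050 ± 0.023 (SE, unadjusted p = 0.040, limma) and from low by 0.031 ± 0.024. A second Atp5mc3 probe set, correlated with the kept one at 0.51, differed from control by 0.045 (unadjusted p = 0.39, limma) and from low by 0.014. Atp5mc2 differed between high and low by 0.0081 ± 0.044. Atp5pf, coupling factor 6 of the stalk, was lower on low than on control by -0.073 ± 0.051, and Atp5if1, the inhibitor of ATP hydrolysis, differed by 0.0014 ± 0.030 between high and low.

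**Figure D3:**
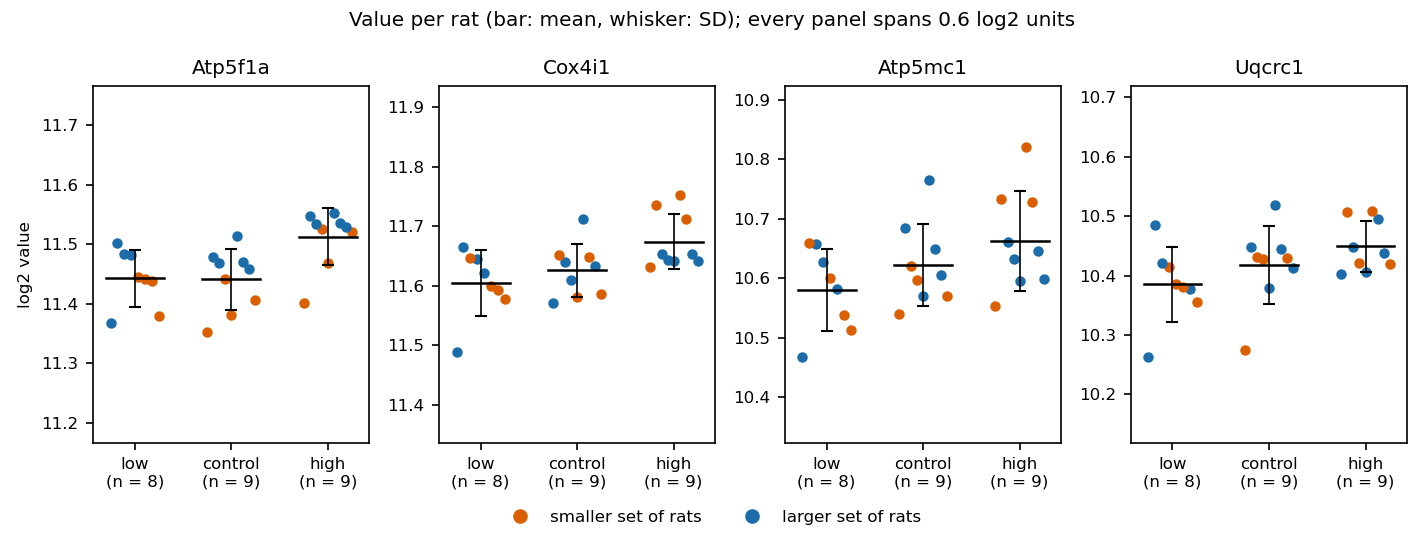
Log2 values of Atp5f1a, Cox4i1, Atp5mc1 and Uqcrc1 in each rat by diet (low 8, control 9, high 9), with means as bars, SD as whiskers and colours for the 2 sets of rats; every panel spans the same width in log2 units. The mean of the high rats is the highest in each panel, the diets overlap, and for Atp5f1a 7 of 9 high rats lie above all low rats.

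The largest differences among these genes lay between rats and not between diets. Clustering on the tested genes that are not members, after diet means were removed, gave a smaller set of 12 rats (4 of each diet) and a larger set of 14 (4 low, 5 control and 5 high), and k-means placed 26 of 26 rats alike. Cage mates shared a set in 12 of 12 cages. The sets were made from these data and are not groups of the study; the labels name no batch that matches them, and their origin was not tested. Differences between them are therefore given as description.

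Atp5mk, a small membrane subunit known to help keep ATP synthase dimers together, lay between 11.99 and 12.17 in the smaller set (median 12.12) and between 11.60 and 11.79 in the larger set (median 11.67). The sets did not overlap. The difference at equal diet, 0.42, was the largest in the direction of the smaller set among all 8485 tested genes. In the other direction differences reached -1.13, the value of a choroid plexus marker. A second probe set of Atp5mk followed the kept one with a correlation of 0.99 over the rats. Uqcrq, a small subunit of complex III, went the other way, from 10.25 to 10.46 in the smaller set (median 10.40) and from 10.59 to 10.70 in the larger set (median 10.66), again without overlap. Only these 2 of 37 members (5.41%) separated the sets, against 0.412% of all tested genes; both were singled out after their values were seen. RefSeq names 3 copies of Atp5mk and 0 of Uqcrq.

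The other members differed less between the sets, in both directions. In complex V the median difference (smaller minus larger) was -0.013, with 7 of 15 members higher in the smaller set; after Atp5mk came Atp5mc2 (0.12) and Atp5f1b (0.084), and at the other end Atp5pd (-0.092), Atp5f1e (-0.068) and Atp5f1a (-0.059). In complex III, 6 of 7 members were lower in the smaller set, among them, beside Uqcrq, Uqcr11 (-0.15) and Uqcrh (-0.10). In complex II, Sdhd (-0.17) and Sdha (-0.090) were lower and Sdhc was higher (0.039). In complex IV, Cox7b (0.17) and Cox7a2 (0.083) were higher and Cox7c (-0.11), Cox5b (-0.11) and Cox8a (-0.083) lower. Over all tested genes the median difference was -0.012, and 12.2% of genes differed by more than 0.1 either way, against 8 of 37 members (21.6%).

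**Figure D4:**
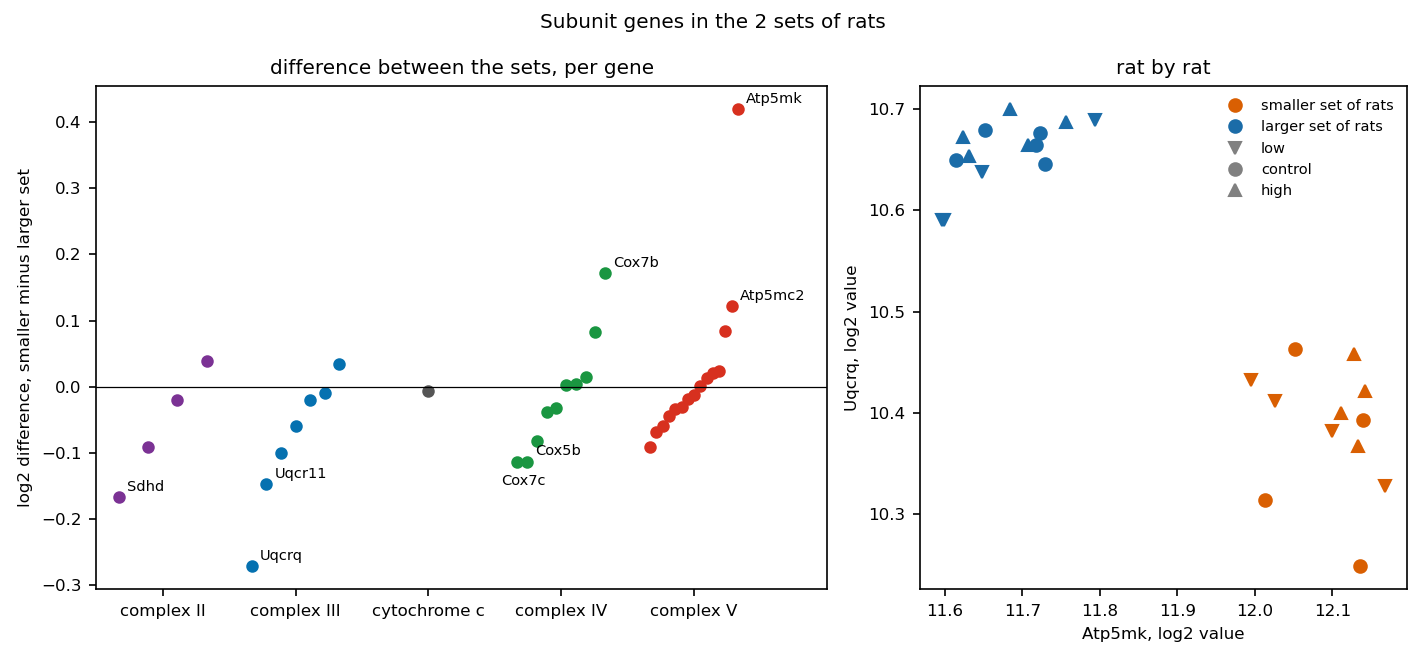
Left, log2 difference between the smaller (12 rats) and the larger set (14 rats) at equal diet for each tested member by complex, with members beyond 0.1 named; right, Atp5mk against Uqcrq in each rat, with colour for the set and marker shape for the diet. Atp5mk and Uqcrq sit at opposite ends on the left and form 2 separate groups of rats on the right, each with all 3 diets.

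Because the rats form separate groups, correlations of Atp5mk with Uqcrq are given within each set: -0.42 in the 12 rats of the smaller set and 0.72 in the 14 of the larger set. Uqcrh with Uqcrq gave 0.48 and 0.51, and Atp5mk with Cox7b 0.45 and 0.72. Without the 2 farthest rats, Uqcrh with Uqcrq gave 0.49 and 0.17, so the larger-set value rested on few rats. In the same way Atp5mk with Cox7b gave 0.56 and 0.57, and Atp5mk with Uqcrq -0.62 and 0.61. These pairs were picked for their correlation over all rats. After removal of diet and set means, the median correlation over 666 pairs of members was 0.17, against 0.041 over all pairs of tested genes. It was 0.24 within complex IV (45 pairs), 0.17 within complex V (105 pairs), 0.084 within complex III (21 pairs) and -0.067 within complex II (6 pairs), against 0.15 between members of different complexes. All values come from the same 26 arrays. Without removal of sets, the median over member pairs was 0.14 in the values as deposited, against 0.041 over all pairs. With each array centred on its median, also without removal of sets, it was 0.025, against 0.0037 over all pairs.

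Diet differences were then read with the set as a covariate, an alternative added after the data were seen. The sets were found in these same arrays, so the covariate takes up spread between rats for genes that differ between the sets. A smaller p with it is therefore not separate evidence. No gene was called, 8.95% of all genes and 6 of 37 members stood at an unadjusted p under 0.05 between high and low, and the smallest adjusted p of a member was 0.52 (limma). Those 6 were Atp5f1a (0.067 ± 0.022, SE), Cox4i1 (0.070), Sdha (0.058 ± 0.023), Cox7b (0.088 ± 0.035), Atp5mc1 (0.082) and Uqcrc1 (0.064). Atp5mk differed between high and low by 0.037 ± 0.030 and Uqcrq by 0.036 ± 0.025. Within the smaller set 30 of 37 members were higher on high than on low (81.1%, against 54.7% of all genes), and within the larger set 25 of 37 (67.6%, against 51.1%). Between high and control the sets parted: 30 of 37 members were higher on high in the smaller set (81.1%; all genes, 55.2%) and 17 of 37 in the larger set (45.9%; all genes, 45.9%), with medians of 0.042 and -0.0025. Atp5f1a was higher on high than on control in both, by 0.084 ± 0.032 (SE) and 0.063 ± 0.029, whereas Atp5mc1 differed by 0.13 ± 0.049 and -0.028 ± 0.044. Within a set each diet rests on few cages: 2 per diet in the smaller set, and 2 (low), 3 (control) and 3 (high) in the larger. These SE count each rat as a replicate and take no account of cage mates. The difference between the sets in these contrasts was not tested.

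Every list of related genes given here had a larger share higher on high than on low than all genes (55.2%), and no calls. The shares ran from 57.1% to 87.9%. Of the genes listed as subunits of complex I, which passes electrons from NADH to ubiquinone, 29 of 33 were higher on high than on low (87.9%, median 0.035). Among them were Ndufa7 at 0.11 ± 0.044 (SE) and Ndufs1, the iron-sulphur subunit of the peripheral arm, at 0.060 ± 0.024. Against control 23 of 33 were higher on high. That list also holds Ndufa4, now assigned to complex IV, which the rule for members did not take in. Among assembly factors 2 of 3 were higher on high than on low for complex II (Sdhaf2 0.044, Sdhaf3 0.0091) and 6 of 7 for complex III (Uqcc2 0.052, Ttc19 0.036). For complex IV this was 10 of 14 (the copper chaperone Sco1 0.096, Higd1a 0.10). The list drawn up for complex V gave 4 of 5 (Dmac2l 0.028). These include Dmac2 (0.046), which is known as an assembly factor of complex I and not of complex V. Regulators of mitochondrial biogenesis divided 8 to 6, a share (57.1%) near that of all genes, with Mterf4 at 0.13 and Yy1 at 0.053. Of the carriers and channels that serve ATP synthesis 8 of 12 were higher, among them mitochondrial creatine kinase Ckmt1 at 0.080 and cyclophilin D (Ppif) at 0.092. Of the hypoxia and glycolysis genes 11 of 13 were higher, with hexokinase Hk1 at 0.048 and Vegfa, a growth factor for vessels, lower at -0.11. At the adjusted threshold, 0 of these genes were called; the smallest unadjusted p in the lists were 0.013 (Mterf4) and 0.017 (Ndufa7).

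Markers of cell types and regions were counted in the same way; 0 were called, and their part in the values of the members was not tested. Of the neuronal markers 10 of 12 were higher on high than on low (median 0.039), and their mean ranged from 12.20 to 12.29 on low, 12.19 to 12.28 on control and 12.24 to 12.30 on high. Interneuron markers were higher for 9 of 10 (median 0.070). Markers of the neighbouring cortex were higher for 5 of 5 (median 0.096), with a mean from 10.48 to 10.59 on low, 10.43 to 10.61 on control and 10.46 to 10.70 on high (rat medians 10.54, 10.53 and 10.66). Only 5 of the 10 listed cortex markers were among the array symbols. In their mean 7 of 9 high rats exceeded every low rat and 1 lay below every low rat, and 7 of 9 exceeded every control rat. Blood vessel markers were lower for 9 of 11 (median -0.056), with a mean from 8.40 to 8.54 on low, 8.42 to 8.54 on control and 8.37 to 8.46 on high. At an unadjusted p under 0.05 (limma) between high and low stood 4 of 5 cortex, 2 of 12 neuronal and 1 of 10 interneuron markers, all higher. On the lower side stood 4 of 11 vessel markers and 1 of 6 CA1 markers. The share of all genes, in either direction, was 7.22%. Microglial markers were lower for 7 of 8, CA1 markers for 5 of 6 and dentate gyrus markers for 4 of 4, while astrocyte markers divided 4 to 5 and oligodendrocyte markers 6 to 3. The microglial mean stood at 10.52 in low rat 5 and between 9.91 and 10.01 in the other low rats. Its rat medians were 9.98 on low, 9.98 on control and 9.98 on high. Between high and control, 8 of 12 neuronal, 9 of 10 interneuron and 5 of 5 cortex markers were higher on high, 10 of 11 vessel markers were lower, and microglial markers divided 4 to 4 (all genes, 50.6% higher). In that comparison 3 of 5 cortex markers (higher), 5 of 11 vessel markers (lower) and 1 of 9 astrocyte markers (lower) stood at an unadjusted p under 0.05 (limma), against 4.63% of all genes. The 2 tested choroid plexus markers divided 1 to 1 between high and low. Their mean varied widely between rats, from 9.53 to 10.90 on low, 9.04 to 12.44 on control and 9.13 to 11.40 on high. All lists were read in the same arrays as the members.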

How the data were processed

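Hippocampal RNA of 26 rats was hybridised to Affymetrix Rat Gene arrays, 1 per rat. The authors deposited log2 values per probe set; the submitters' processing notes name Partek 6.6 and GCRMA without saying what each did. The table holds 29214 probe sets and 0 missing values. Gene symbols came from the array's platform annotation (15310 probe sets with 1 symbol, 323 with several, 13581 with none); probe sets with several symbols were not used. RefSeq (GRCr8) held the gene IDs of 44 of 44 members. The members and gene lists were chosen with earlier results of these data known.

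Diet was fitted as a factor over all arrays with limma 3.58.1 in R 4.3.3 (lmFit, eBayes, two-sided moderated tests, Benjamini-Hochberg over 8485 genes), and checked on simulated data. Intervals are 95% from that fit. Each rat is a replicate. Members were named by rule: all of complex II and Cycs, the 3 smallest p per contrast of complexes III to V, the isoform families and Atp5if1; of each pathway list the 2 smallest p between high and low. Sets of rats were found by Ward clustering of genes that are not members. Alternatives covered normalization, filter, probe sets, weights, cage, tail mark, removal of values over 2 SD, thresholds, dose trend, moderation and each rat left out. The number of arrays limits the precision.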

Additional observations from a re-analysis of the deposited data

Results flagged for a closer look

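In 5 of the 99 groups of rats examined (named members and complex means, by diet) the highest or lowest rat stood farther from its nearest neighbour than is usual for a group of that size; chance alone gives about 1 in 20 such groups. Sdhb stood at 10.76 in low rat 7, against at most 10.48 in the other low rats, and at 10.56 in control rat 17, against at most 10.48 in the other control rats. Cox6a1 stood at 12.10 in low rat 2, below the 12.23 of the next rat. Atp5f1c stood at 9.00 in control rat 9, above the 8.91 of the next rat. Cox6a2, below the limit for testing, stood at 6.20 in control rat 17, above the 5.86 of the next rat.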

How the results depend on the processing

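No member was called under any alternative. Of the values recomputed, 915 kept their direction and their side of the threshold, or moved by less than the spread, and 27 moved. Genes called between high and low went from 0 to 1 (Polr1b) with quantile normalization, with centring on array medians and with tail mark as a covariate, to 2 at the 0.31 threshold and to 30 with values over 2 SD removed. That removal, which takes values out gene by gene and so narrows the spread, also called 17 genes over the diets and 15 between high and control. Members at an unadjusted p under 0.05 between high and control went from 2 to 1 with quantile normalization and with cage as a random block. With each rat left out in turn, genes called ranged from 0 to 3 over the diets (3 without high rat 25), 0 to 3 between high and low (3 without high rat 25) and 0 to 1 between high and control (1 without control rat 17 or high rat 25); members at an unadjusted p under 0.05 ranged from 2 to 5 between high and low and from 1 to 3 between high and control. The cause was not tested. The medians of complexes II to V between high and low stayed above 0 in every setting, from 0.0075 to 0.056. That of complex IV between high and control reached -0.00023 with values over 2 SD removed and -0.00014 without control rat 15, and those of complexes II, III and V between low and control changed sign when some rats were left out. No paired analysis was possible because the diets share no rat numbers.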
